A study of Mus musculus with 187 samples.

Results

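Single 2-cell mouse embryos that had received the tRNA fragment tRF-GlyGCC were compared with embryos of the same end code that had received tRF-GluCTC. The comparison was made up of every embryo whose title carries one given end code and whose injected RNA is labelled tRF-GlyGCC (16 embryos) or tRF-GluCTC (6 embryos), which is 22 of the 187 embryos of the series and 22 of the 43 in their table. The choice used labels only and no measured value. The shared end code reads like a day, although the labels do not define it.

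All embryos were of the FVB strain and came from in vitro fertilisation of oocytes with sperm, both from animals on a control diet. Zygotes were injected 2 h after fertilisation, and each 2-cell embryo was frozen on its own 32 h after fertilisation. The file headers describe the tRF-GlyGCC oligonucleotide as modified and the tRF-GluCTC oligonucleotide as unmodified, so fragment sequence and oligonucleotide chemistry cannot be told apart here. The protocol states that embryos with GFP signal were collected, while the label of injected RNA names H3.3-GFP mRNA only for the GFP group (5 embryos of the same end code). Titles also carry an F number of undefined meaning, 1 (2 embryos), 2 (5) or 4 (9) in the tRF-GlyGCC group and 2 (3) or 4 (3) in the tRF-GluCTC group. Which embryos share parents or a fertilisation is not labelled, so the p-values below rest on the scatter of single embryos alone.

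A tRF is a stable piece cut from a transfer RNA. Pieces from the 5' end of the glycine (GCC) and glutamate (CTC) tRNAs are among the abundant small RNAs of mature mouse sperm, which gain them while passing through the epididymis. In mouse embryos, tRF-GlyGCC is known for lowering a group of genes that are read from the long terminal repeat of the endogenous retrovirus MERVL in a burst at the 2-cell stage. The 2-cell stage is also when the embryo clears transcripts laid down in the oocyte and starts its own transcription, including ribosomal protein and nucleolar genes.

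Each embryo had 0.971 to 2.478 M counts (M, the SI prefix mega) with tRF-GlyGCC (median 1.67) and 1.256 to 2.17 M with tRF-GluCTC (median 1.81). Levels are given as CPM, counts scaled to a common library size, which are not divided by transcript length, so a gene is compared only with itself in other embryos. Whole embryos were sequenced, so the cells of an embryo cannot be told apart, and each level is relative to the other counts of that embryo. Of the 22 libraries, 4 stood apart on the first principal component, namely tRF-GlyGCC replicates 11 and 13 and tRF-GluCTC replicates 4 and 5, all of F number 4. These 4 had 6550 to 6841 genes with at least 10 counts, against 7186 to 8386 in the other 18, and their 10 most abundant genes took 7.5 to 10.4% of counts, against 3 to 7.5%. Their totals, 0.996 to 1.6 M, lay within the range of the others but toward its low end, at ranks 2, 3, 4 and 8 from the lowest of 22. The other 18 had a median of 1.88 M, and the part of depth in the separation was not tested. They make up 2 of 16 embryos in the first group and 2 of 6 in the other, so results are given with and without them.

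The first principal component of the 1000 most variable genes held 37% of their variance and ran across both groups, from embryos rich in ribosomal protein and nucleolar transcripts to embryos rich in maternal ones. Summed over 82 cytosolic ribosomal protein genes, the level was lowest at 2591, had its median at 10441 and was highest at 20378 CPM in the tRF-GlyGCC embryos. In the tRF-GluCTC embryos it was lowest at 7013, had its median at 11177 and was highest at 12542 CPM. The smaller group lay inside the range of the larger one, and its 2 lowest values were those of replicates 4 and 5.

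The embryo with the lowest ribosomal sum, tRF-GlyGCC replicate 13, had the highest sum of maternal transcripts. The sum over 81 maternal transcripts ran from 22760 to 112965 CPM with tRF-GlyGCC (median 51632) and from 34725 to 100958 CPM with tRF-GluCTC (median 60871). The 4 libraries that stood apart had maternal sums of 71233 to 112965 CPM and ribosomal sums of 2591 to 7998 CPM, while the other 18 had 22760 to 95808 and 6130 to 20378 CPM. Genes of nucleolar ribosome assembly (92 genes) summed to 6125 to 13043 CPM in those 4 and to 9929 to 26191 CPM in the rest. The GFP embryos of the same code spanned 3021 to 13021 CPM for ribosomal proteins and 32536 to 71380 CPM for maternal transcripts.

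**Figure D1:**
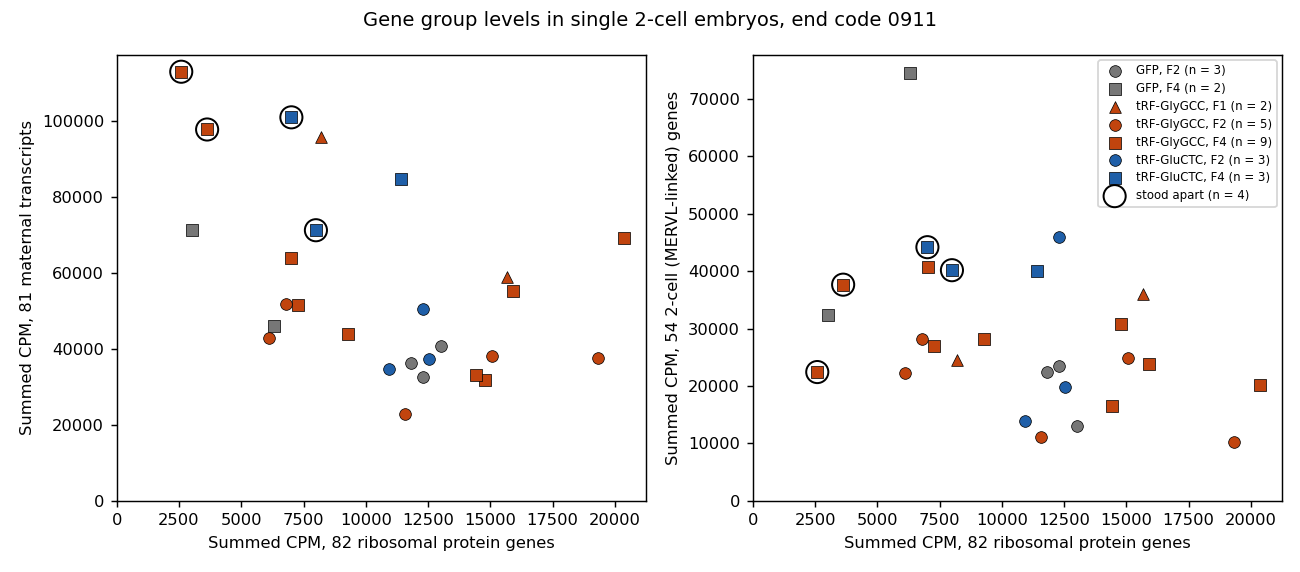
Summed CPM of 82 ribosomal protein genes (horizontal axis) against that of 81 maternal transcripts (left) and of 54 MERVL-linked 2-cell genes (right); each point is 1 embryo of the shared end code, coloured by injected RNA and shaped by F number, and rings mark the 4 libraries that stood apart. Both tRF groups spread over much of the same area, and on the right-hand axis the 4 highest tRF-GluCTC embryos, 2 of them ringed, lie between 40074 and 45955 CPM.

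For the 5 ribosomal protein genes that the naming rule selected, the 30 bases around the RefSeq start site (15 before and 15 after) are shown. They are from build GRCm38.p6, 5' to 3'. For Rps2 and Rpl7a the start used by the sequence table lies inside the annotated span of the gene, and so differs from its outermost start. Messages of ribosomal proteins are known for a pyrimidine tract at their very start, through which their translation is controlled. The letters CTTTC, searched for on the strand of the gene and with overlaps counted once, are in capitals. The search took all 30 bases, and in the Rpl7a window the match lies in the 15 bases before the start site.
Rplp0: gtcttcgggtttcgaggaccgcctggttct
Rps2: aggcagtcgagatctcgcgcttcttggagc
Rpl41: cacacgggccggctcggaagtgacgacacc
Rpl14: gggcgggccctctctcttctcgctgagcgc
Rpl7a: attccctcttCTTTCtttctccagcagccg
These windows lie at chr5:115559452-115559481 (+), chr17:24720048-24720077 (+), chr10:128549154-128549183 (-), chr9:120571502-120571531 (+) and chr2:26910792-26910821 (+). Of the 82 ribosomal protein genes 61 had such a window, and 17 of these (27.9%) held CTTTC, as did 1286 of the 27025 genes with a window (4.76%). A match describes the letters and is not a measured site. These counts include matches before the start site, which lie outside the message as annotated. The tract is known for translation while the values here are RNA levels, and a link between them was not tested.

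Across all genes, no difference between the fragments passed the threshold. edgeR's quasi-likelihood test called 0 of 8749 genes at an adjusted p under 0.05 in either direction (0% of genes tested), and the smallest adjusted p was 0.9999. At an unadjusted p under 0.05 there were 132 genes (1.51%), 89 higher with tRF-GlyGCC (1.02%) and 43 lower (0.491%). Evenly spread p-values would place a fraction of 0.05 of the genes there, so 1.51% is a shortfall and not an excess. DESeq2 gave 0 adjusted calls and 218 genes at that unadjusted level. Without the 4 libraries that stood apart there were again 0 adjusted calls and 175 genes at an unadjusted p under 0.05. The biological coefficient of variation between embryos of a group was 0.822. In counts simulated with the means, spread and depths of these embryos, the same test recovered 2 of 100 genes changed 2-fold and 31 of 100 changed 4-fold, among 8660 genes tested. Changes of either size were thus mostly missed in the simulation. It drew each gene on its own, without the variation that genes of an embryo share, so recovery in the real embryos may differ.

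**Figure D2:**
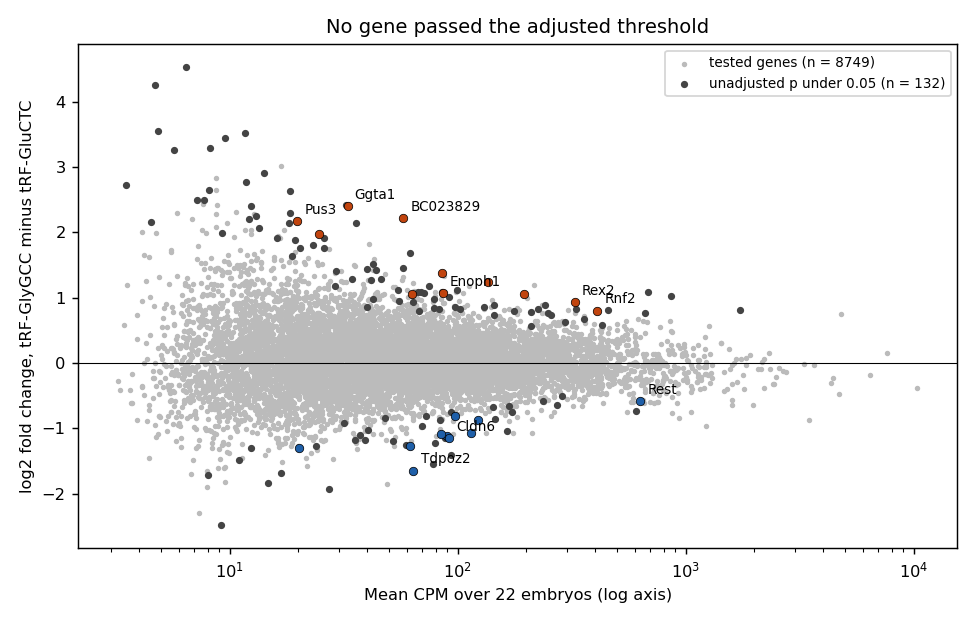
Mean CPM over the 22 embryos (log axis) against the log2 fold change of tRF-GlyGCC minus tRF-GluCTC for 8749 tested genes. Dark points mark the 132 genes at an unadjusted p under 0.05, and coloured points the genes that the naming rule selected by p or by groups that do not overlap; no gene passed the adjusted threshold.

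The values below describe the genes with the smallest p in each direction, none of which can be called changed. All had an adjusted p of 1 to 3 digits, and fold changes are log2 values with their standard error.

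Pus3, which encodes a pseudouridine synthase that modifies the anticodon arm of tRNAs (chromosome 9, 35558560 to 35567401, GRCm38), was the 1 gene of 8749 (0.0114%) whose groups did not overlap. In the tRF-GlyGCC embryos its lowest value was 13.9 CPM, its median 21.2 and its highest 44.7. The tRF-GluCTC embryos, in order of replicate, had 8.82, 0, 9.05, 2.69, 0 and 12.1 CPM. Every tRF-GlyGCC embryo thus lay above every tRF-GluCTC embryo, including the 4 that stood apart, and the GFP embryos had 14.9, 37.1, 37.3, 28.1 and 14.6 CPM. The fold change was 2.17 ± 0.70 (edgeR unadjusted p = 0.00448, adjusted p = 1), and 1.75 ± 0.71 without the 4 libraries. It was 2.16 ± 1.07 among embryos of F number 2 and 2.21 ± 1.07 among those of F number 4. Pus3 was named for groups that do not overlap, so its direction in any part of these embryos was fixed in advance. In the tRF-GlyGCC embryos of the other end code in the table the gene ran from 0 to 53.8 CPM (median 19.6), so the separation did not extend to those embryos. Pus3 overlaps Hyls1, a centriole gene (35560821 to 35570069), and without a stated use of strand their reads cannot be told apart where they overlap; Hyls1 had medians of 55.2 and 48.2 CPM and a fold change of -0.01 ± 0.40.

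Among the 10 genes of smallest p with the higher level after tRF-GlyGCC, BC023829 (named Tmem185a in RefSeq, a membrane protein gene on chromosome X) had 6.05, 68.6 and 269 CPM as lowest, median and highest value. The tRF-GluCTC embryos had 4.67, 7.85, 41.5, 0.896, 24.3 and 14 CPM. Of the 16 tRF-GlyGCC values 15 were above the median of the other group, and the fold change was 2.22 ± 0.66 (edgeR unadjusted p = 0.00222, adjusted p = 1). Without the 4 libraries it was 2.11 ± 0.73, and the GFP embryos ran from 31.7 to 149 CPM (median 64).

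Enoph1, an enzyme of the methionine salvage pathway (chromosome 5), had 51.3, 97 and 190 CPM as lowest, median and highest value with tRF-GlyGCC. With tRF-GluCTC it had 43.6, 28.8, 25.9, 92.3, 49.5 and 47.4 CPM, so 5 of 6 embryos lay below the lowest tRF-GlyGCC value and replicate 4, one of the libraries that stood apart, lay among the others. The fold change was 1.06 ± 0.34, and 1.44 ± 0.38 without the 4 libraries (edgeR unadjusted p = 0.00416 and 0.000879). GFP embryos had 57.7 to 160 CPM.

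Rnf2 (Ring1b), the catalytic subunit of Polycomb repressive complex 1 and a maternal factor in the mouse embryo, had 290, 404 and 929 CPM with tRF-GlyGCC and 135, 272 and 360 CPM with tRF-GluCTC as lowest, median and highest value. Of the 6 tRF-GluCTC embryos 3 lay below all tRF-GlyGCC embryos, and the fold change was 0.80 ± 0.28 (0.60 ± 0.30 without the 4 libraries). Ensa, an inhibitor of the phosphatase PP2A-B55 that acts at entry into mitosis, had medians of 64.6 and 31.9 CPM, with 33.9 to 169 CPM in the first group and 14.1 to 55.9 in the second. Its fold change was 1.05 ± 0.38, and its GFP embryos ran from 11.3 to 43.8 CPM, nearer to the tRF-GluCTC values.

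Brox, a BRO1-domain protein that works with the ESCRT machinery, had medians of 137 and 71.7 CPM (52 to 437 and 20.2 to 115) and a fold change of 1.24 ± 0.45. Ccnc, the cyclin of the Mediator kinase module, had medians of 96.1 and 35.8 CPM (20.5 to 295 and 11.8 to 73.2) and a fold change of 1.38 ± 0.50. The zinc finger gene Zfp942 had medians of 211 and 114 CPM (73.9 to 499 and 77 to 134), with all 6 tRF-GluCTC embryos inside the tRF-GlyGCC range, and a fold change of 1.06 ± 0.38 that was 0.66 ± 0.38 without the 4 libraries. In these 3 genes the groups overlapped.

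Ggta1, the enzyme that makes the alpha-gal sugar epitope, ran from 0 to 107 CPM with tRF-GlyGCC (median 32.1) and from 0 to 18.2 with tRF-GluCTC (median 7.98). Lgr4, a receptor for R-spondins in Wnt signalling, ran from 0 to 54 CPM (median 35.2) and from 0 to 21.8 CPM (median 4.6). Their fold changes were 2.40 ± 0.87 and 1.97 ± 0.74, both groups reached 0, and 14 and 15 of the 16 tRF-GlyGCC embryos were above the tRF-GluCTC median. The tenth gene of this direction, Rex2, belongs to the 2-cell genes and is described with them.

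Among the 10 genes of smallest p with the higher level after tRF-GluCTC, Rest encodes the repressor of neuronal genes (chromosome 5, 77265494 to 77286432). The tRF-GlyGCC embryos had 261, 560 and 779 CPM as lowest, median and highest value, and the tRF-GluCTC embryos had 1019, 882, 694, 502, 966 and 941 CPM. Of the 6 tRF-GluCTC embryos 4 lay above every tRF-GlyGCC embryo. The fold change was -0.59 ± 0.23, and -0.61 ± 0.23 without the 4 libraries, with -0.51 in F number 2 and -0.59 in F number 4. GFP embryos ran from 445 to 933 CPM (median 661), between the medians of the tRF groups.

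Ndufa4, a subunit of cytochrome c oxidase, had 22.2, 56 and 128 CPM with tRF-GlyGCC and 184, 38.2, 51, 206, 313.4 and 91.7 CPM with tRF-GluCTC. Its 2 highest values were those of the libraries that stood apart, and the fold change of -1.13 ± 0.40 was -0.61 ± 0.42 without the 4. Cldn6, a claudin of tight junctions in early epithelia, had 23.1, 55.4 and 249 CPM with tRF-GlyGCC against 168, 180, 59.2, 75.3, 359 and 78.4 CPM, and a fold change of -1.15 ± 0.41 (-0.77 ± 0.45 without the 4).

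Several of the other genes of this direction rested on few embryos. Kcnq1ot1, the long non-coding RNA of an imprinted domain on chromosome 7, had 42, 353, 148, 59.1, 15.7 and 31.6 CPM with tRF-GluCTC against a median of 45.8 CPM with tRF-GlyGCC, and its fold change was -1.27 ± 0.46, with -1.98 in F number 2 and 0.24 in F number 4. It lies within the gene Kcnq1, whose reads could mix with its own. Grk4, a kinase of G protein-coupled receptors, followed the same replicates, with 96.9 and 51.8 CPM in tRF-GluCTC replicates 2 and 3 against a highest tRF-GlyGCC value of 25.6, and a fold change of -1.30 ± 0.51 (-1.92 and -0.03 in the 2 F numbers). Arid4a, a chromatin protein that binds the retinoblastoma protein, had 237 and 286 CPM in tRF-GluCTC replicates 4 and 5 and 61.3 to 98.4 CPM in the other 4, and without the libraries that stood apart its fold change went from -0.81 ± 0.31 to 0.02 ± 0.30. Nans, an enzyme of sialic acid synthesis, moved likewise from -0.87 ± 0.35 to 0.10 ± 0.36.

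Oat, ornithine aminotransferase, had 246, 237 and 198 CPM in tRF-GluCTC replicates 1, 4 and 5, all above the highest tRF-GlyGCC value of 121, while replicate 2 with 11 CPM lay below all tRF-GlyGCC embryos. Rit1, a small GTPase of the Ras family, had 460 CPM in tRF-GluCTC replicate 4 and 52.2 to 241 in the other 5, against 42.1 to 255 with tRF-GlyGCC. Their fold changes of -1.09 ± 0.42 and -1.08 ± 0.39 were -0.54 ± 0.48 and -0.36 ± 0.42 without the 4 libraries.

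**Figure D3:**
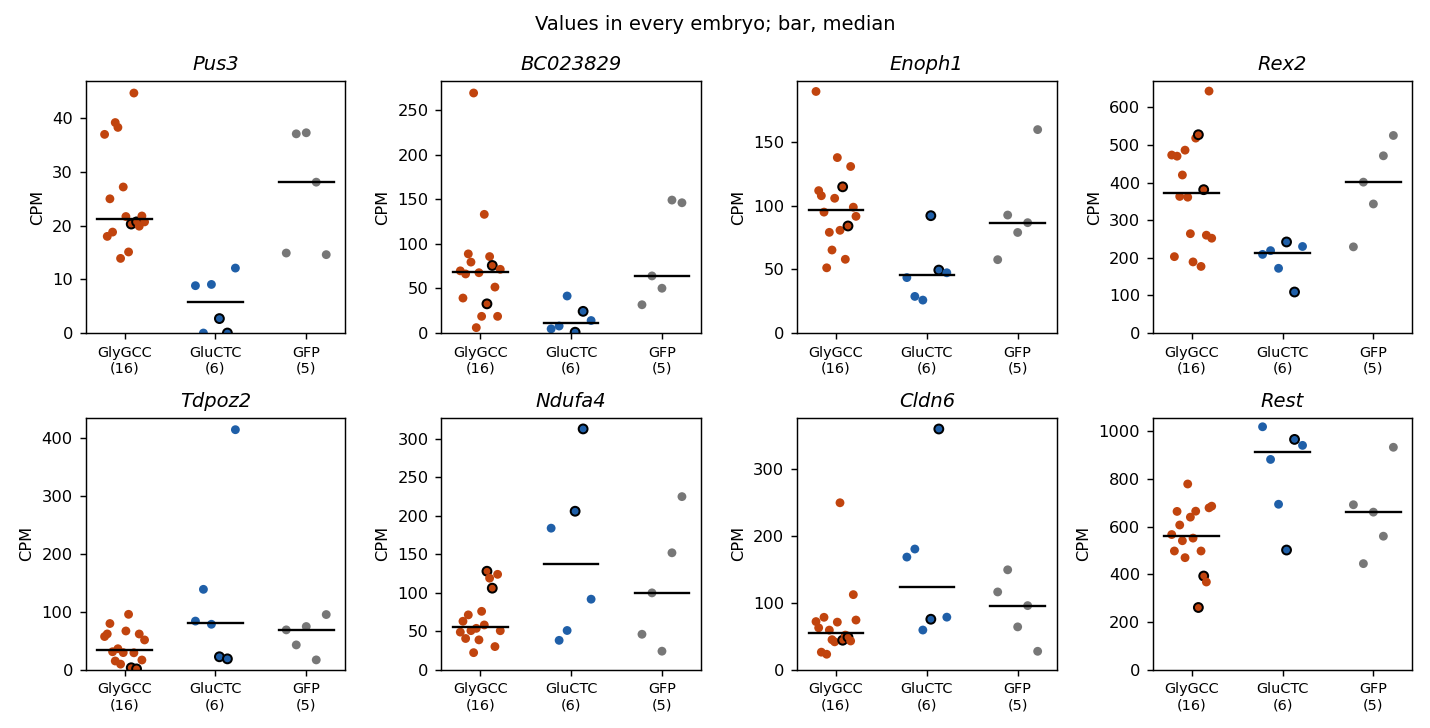
CPM in every embryo for 8 of the named genes after tRF-GlyGCC (16 embryos), tRF-GluCTC (6) and GFP (5), of the shared end code; the bar is the median and black outlines mark the 4 libraries that stood apart. Only for Pus3, of these 8 genes, do the 2 tRF groups not overlap.

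The genes linked to MERVL had mostly lower estimates after tRF-GlyGCC than after tRF-GluCTC. Of 54 such genes in the table, 42 (77.8%) were lower and 12 higher, beside 46.7% of all genes lower, and their median log2 fold change was -0.38, beside 0.03 over all genes. None passed the adjusted threshold, and 4 had an unadjusted p under 0.05, 3 lower (beside 0.491% of all genes) and 1 higher (beside 1.02%). Many of these genes exist in near-identical copies, between which the counting could split reads, so their single values are uncertain and they are not independent of each other. The list was also chosen with earlier results of these data known, so its direction here is not independent of those results.

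Summed over the 54 genes, the level was 10190, 24650 and 40730 CPM as lowest, median and highest value in the tRF-GlyGCC embryos. The tRF-GluCTC embryos, in order of replicate, had 45955, 19896, 13892, 44192, 40180 and 40074 CPM. The 4 highest of these values, 2 of them from libraries that stood apart, lay near the highest tRF-GlyGCC value, and the other 2, both of F number 2, lay below the tRF-GlyGCC median. The GFP embryos covered both ends, from 13019 to 74532 CPM. Their median of 23411 lay below the tRF-GlyGCC median of 24650, beside 40127 CPM with tRF-GluCTC. By these medians the tRF-GlyGCC embryos were not lower than the GFP embryos of their code. For the other end code, tRF-GlyGCC embryos ran from 7964 to 117591 CPM (median 17165) and GFP embryos from 13968 to 35024 CPM (median 22397).

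Without the 4 libraries that stood apart, 37 of 54 were lower (68.5%, beside 47.1% of all genes), the median was -0.30, and 8 were lower at an unadjusted p under 0.05 (beside 1% of all genes) and 1 higher (beside 0.991%). Within F number 2 the median was -0.35, with 36 of 53 genes lower (46.5% of all genes), and within F number 4 it was -0.49, with 45 of 54 lower (43.1% of all genes). Each of these values rests on few tRF-GluCTC embryos. In F number 2 the sum of replicate 1 (45955 CPM) lay above those of the tRF-GlyGCC embryos (10190 to 28127 CPM). The sums of replicates 2 and 3 (19896 and 13892 CPM) lay among them. In F number 4, tRF-GluCTC replicates 4 and 5 were libraries that stood apart. Leaving out 1 embryo at a time gave medians of -0.47 to -0.25 and 39 to 44 lower genes. Of the 54 estimates over all 22 embryos, 25 lay more than 1 standard error below 0 and 2 more than 1 standard error above it. The same share over all genes was not counted, so these counts have no background beside them. The median standard error was 0.46 for the 54 genes and 0.55 for all genes.

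The 3 members of highest mean CPM were Gm21312, Gm8994 (Eif4a3l1 in RefSeq, a gene like the helicase Eif4a3) and Gm2042. Gm21312 had 159, 3106 and 5392 CPM as lowest, median and highest value with tRF-GlyGCC, and 6792, 1674, 874, 7350, 10063 and 4539 CPM with tRF-GluCTC. In 3 of 6 tRF-GluCTC embryos the value was above that of every tRF-GlyGCC embryo, and the fold change of -0.88 ± 0.54 was -0.30 ± 0.66 without the 4 libraries, 2 of which gave its highest values. Gm8994 had medians of 1985 and 2192 CPM and a fold change of -0.32 ± 0.46, and Gm2042 had medians of 1732 and 1973 CPM, with ranges of 734 to 5580 and 638 to 3698 and a fold change of 0.16 ± 0.45, of opposite sign to the difference of its medians. Gm2042 was highest in tRF-GlyGCC replicates 1, 11 and 13 (5580, 5546 and 5251 CPM), at ranks 4, 3 and 1 from the highest maternal sum. Replicate 15, at rank 12, had 3644 CPM. The place of Gm2042 in this list is therefore uncertain.

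The members with the smallest p lay on both sides. Rex2, a zinc finger gene of a repeated cluster on chromosome 4 (146973610 to 147060799), went against the list, with 177, 372 and 643 CPM with tRF-GlyGCC and 209, 219, 172, 242, 109.2 and 230 CPM with tRF-GluCTC. The fold change was 0.93 ± 0.30 (edgeR unadjusted p = 0.00483, adjusted p = 1) and 0.78 ± 0.33 without the 4 libraries. Tdpoz2, of a family of TRAF-domain and POZ-domain genes on chromosome 3, had 1.43, 33.7 and 95.8 CPM with tRF-GlyGCC and 84.1, 139, 78.6, 22.4, 18.8 and 415 CPM with tRF-GluCTC. Its fold change was -1.65 ± 0.57, and -1.99 ± 0.46 without the 4 libraries (edgeR unadjusted p = 0.00763 and 0.000211, adjusted p = 1).

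Tcstv1 and Olfr376, named after their values were seen because they complete the 4 members at an unadjusted p under 0.05, were both lower with tRF-GlyGCC. Tcstv1, known for telomere lengthening in mouse embryonic stem cells, had medians of 133 and 196 CPM, and 607 CPM in tRF-GluCTC replicate 6, with a fold change of -0.75 ± 0.35. Olfr376, an olfactory receptor gene, had medians of 1.92 and 11.1 CPM and a fold change of -2.48 ± 0.99. The Zscan4 genes, which mark the 2-cell-like state of embryonic stem cells, had fold changes from -0.39 (Zscan4a) to 0.13 (Zscan4b), each smaller than its standard error.

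**Figure D4:**
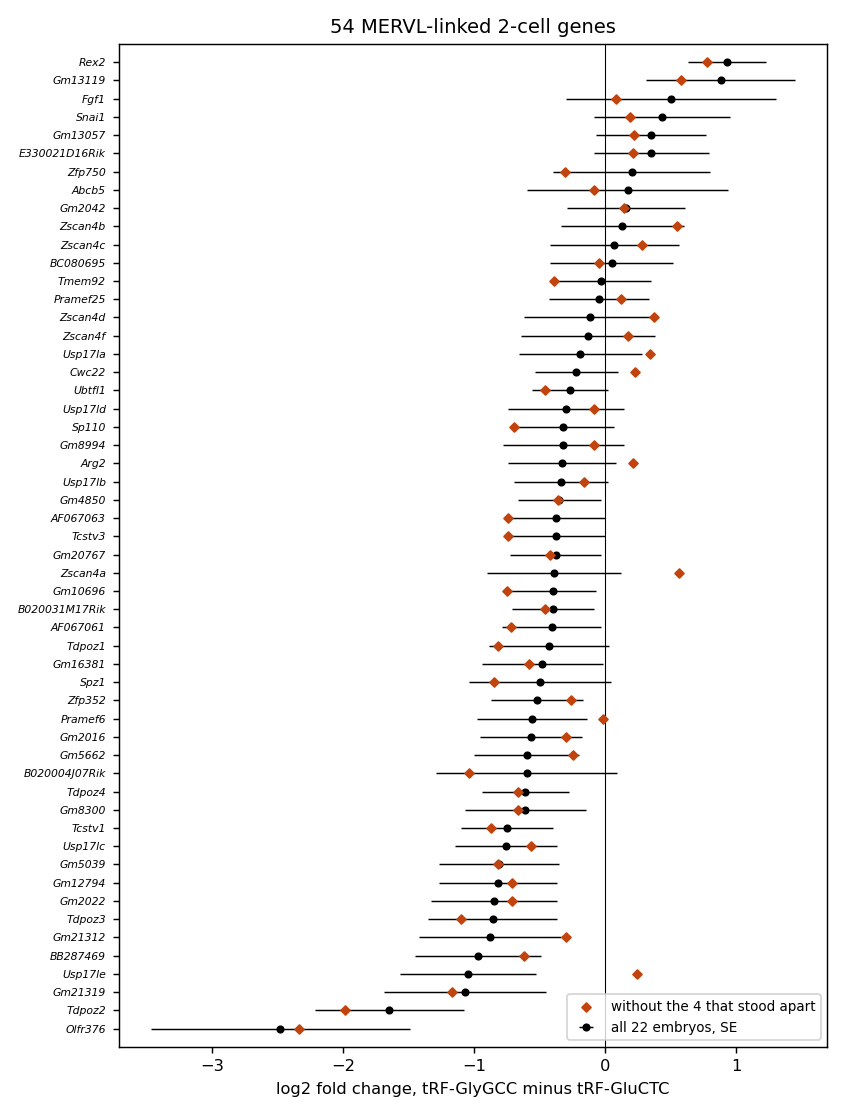
Log2 fold change of tRF-GlyGCC minus tRF-GluCTC for each of 54 MERVL-linked 2-cell genes, with the standard error over all 22 embryos (black) and the estimate without the 4 libraries that stood apart (orange diamonds). Of the 54 black points 42 lie below 0, and no gene passed the adjusted threshold.

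Genes that act on tRNAs and small RNAs were spread evenly around 0. Of 48 tested, 25 were higher with tRF-GlyGCC and 23 lower, with a median of 0.06 (beside 53.3% of all genes higher), and Pus3 was the 1 at an unadjusted p under 0.05. Ybx1, an RNA-binding protein that is known in human cancer cells to bind tRNA fragments, had the highest mean CPM of the list, with 326, 734 and 2198 CPM with tRF-GlyGCC and 1235, 1450, 721, 1552, 1868 and 559 CPM with tRF-GluCTC. The 2 highest tRF-GlyGCC values, 1410 and 2198 CPM, were those of the libraries that stood apart, as were the 2 highest tRF-GluCTC values. The fold change was -0.62 ± 0.34 (-0.63 ± 0.30 without the 4 libraries), and GFP embryos had 632 to 1568 CPM. Ythdf2, a reader of m6A on RNA, had medians of 482 and 600 CPM, and Clp1, a kinase of tRNA splicing, medians of 357 and 409 CPM. Of 31 aminoacyl-tRNA synthetases, which charge tRNAs with amino acids, 16 were higher and 15 lower (median 0.05), and Iars and Qars, the isoleucine and glutamine enzymes, had medians of 297 against 445 CPM and 174 against 127 CPM.

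No ribosomal protein gene was called. Of 82 such genes 58 were higher with tRF-GlyGCC and 24 lower (29.3%, beside 46.7% of all genes lower), with a median of 0.12 and 0 at an unadjusted p under 0.05, and the median was 0.08 without the 4 libraries. Rplp0, of the ribosomal stalk, had 291, 1185 and 1868 CPM with tRF-GlyGCC and 1457, 1045, 1170, 275, 159 and 2544 CPM with tRF-GluCTC, with the 2 lowest values in the libraries that stood apart. Rps2 had medians of 479 and 583 CPM, and Rpl41 medians of 373 and 539 CPM. With the first principal component as a term, the median of the 82 genes was -0.23, with 23 higher and 59 lower (72%, beside 51.2% of all genes). The direction of this list thus turned with that term, which is itself made in part of these genes. The median of the list was -0.04 both with limma-voom and without tRF-GluCTC replicates 4 and 5.

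For nucleolar ribosome assembly, 49 of 92 genes were higher and 43 lower (46.7%, the same share as over all genes), with a median of 0.06. Without the 4 libraries 36 were higher and 56 lower (60.9%, beside 47.1% of all genes), with a median of -0.07. The histone chaperone and ribosome assembly factor Npm1 had medians of 1193 and 1370 CPM, and Utp23, of the small-subunit processome, 753 and 872 CPM. Within F number 4 the median of the list was 0.52, and within F number 2 it was -0.13. Of the 3 tRF-GluCTC embryos of F number 4 2 were libraries that stood apart with low nucleolar sums, as were 2 of the 9 tRF-GlyGCC embryos of that number; their part in the within-number values was not tested.

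Maternal transcripts were lower with tRF-GlyGCC for 52 of 81 genes (64.2%, beside 46.7% of all genes), with a median of -0.09. Without the 4 libraries 43 of 81 were lower (53.1%, beside 47.1% of all genes), with a median of -0.05. The direction was not kept without tRF-GluCTC replicates 4 and 5 alone (median 0.11) or within F number 2 (0.05). Omt2b, an oocyte maturation gene and the member of highest mean CPM, had 4356, 8931 and 17073 CPM with tRF-GlyGCC and 10867, 7640, 5501, 25756, 17520 and 7739 CPM with tRF-GluCTC. Its 2 highest tRF-GluCTC values came from the libraries that stood apart. Spin1, a histone reader of oocytes, had medians of 5208 and 5033 CPM. Obox3, of the Obox homeobox family, was the 1 member of the list at an unadjusted p under 0.05. It had 143, 590 and 814 CPM against 1411, 581, 522, 349, 770 and 1464 CPM, and a fold change of -0.73 ± 0.31 (-0.89 ± 0.32 without the 4). In the embryos of highest maternal sum, tRF-GlyGCC replicates 13 and 11 and tRF-GluCTC replicate 4, it had 289, 275 and 349 CPM. These values lie below its group medians, so Obox3 did not follow the maternal sum and its place in this list is uncertain.

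Heat-shock and translation genes that rise at genome activation had 34 of 54 lower estimates (63%, beside 46.7% of all genes) and a median of -0.07. Without the 4 libraries 29 were lower (53.7%, beside 47.1% of all genes), with a median of -0.03. Within F number 2 there were 24 (44.4%, beside 46.5% of all genes), with a median of 0.04. Hspa8, the constitutive HSP70 chaperone, had medians of 1150 and 1185 CPM, and the cap-binding factor Eif4e had 1003 and 1246 CPM. Hspa2, an HSP70 known from spermatogenesis, had 2.3, 52.5 and 123 CPM with tRF-GlyGCC and 47.2, 21.5, 7.4, 164, 613 and 43.7 CPM with tRF-GluCTC. Its fold change of -1.55 ± 0.68 turned to 0.57 ± 0.77 without the 4 libraries, 2 of which held its highest tRF-GluCTC values.

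Histone genes, to whose messages tRF-GlyGCC has been linked in mouse embryonic stem cells through the Cajal body, held no called difference. H3f3b and H3f3a encode histone H3.3, and GFP embryos received an mRNA of H3.3 fused to GFP. H3f3b had 1038, 2025 and 4086 CPM with tRF-GlyGCC and 2969, 1628, 1377, 4909, 2703 and 2966 CPM with tRF-GluCTC, and H3f3a had medians of 878 and 916 CPM. Of 13 genes of H3.3 and its chaperones 6 were higher and 7 lower (53.8%, beside 46.7% of all genes), with a median of -0.05. Histone mRNA processing and Cajal body genes had 16 higher and 18 lower of 34 (52.9% lower, median -0.01), among them Slbp, the stem-loop binding protein of histone mRNAs, with medians of 733 and 698 CPM. The table lists 5 of the 66 replication-dependent histone genes sought, of which 3 were higher and 2 lower.

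In the other lists of embryo functions the medians lay between -0.16 and 0.09, beside 0.03 over all genes, of which 53.3% were higher. Oxidative phosphorylation had 37 of 68 genes higher (median 0.09), proteasome subunits 20 of 39 (0.03), cholesterol synthesis 11 of 21 (0.02), cell adhesion 13 of 25 (0.08), factors of blastocyst lineages 10 of 21 (-0.03), and p53 and integrated stress response genes 9 of 21 (-0.16). Psmd8, a subunit of the proteasome lid, was the proteasome gene at an unadjusted p under 0.05, with medians of 228 and 128 CPM and a fold change of 0.78 ± 0.35. The stress factor Atf4 had medians of 173 and 238 CPM, and the adhesion molecule Epcam 389 and 287 CPM.

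**Figure D5:**
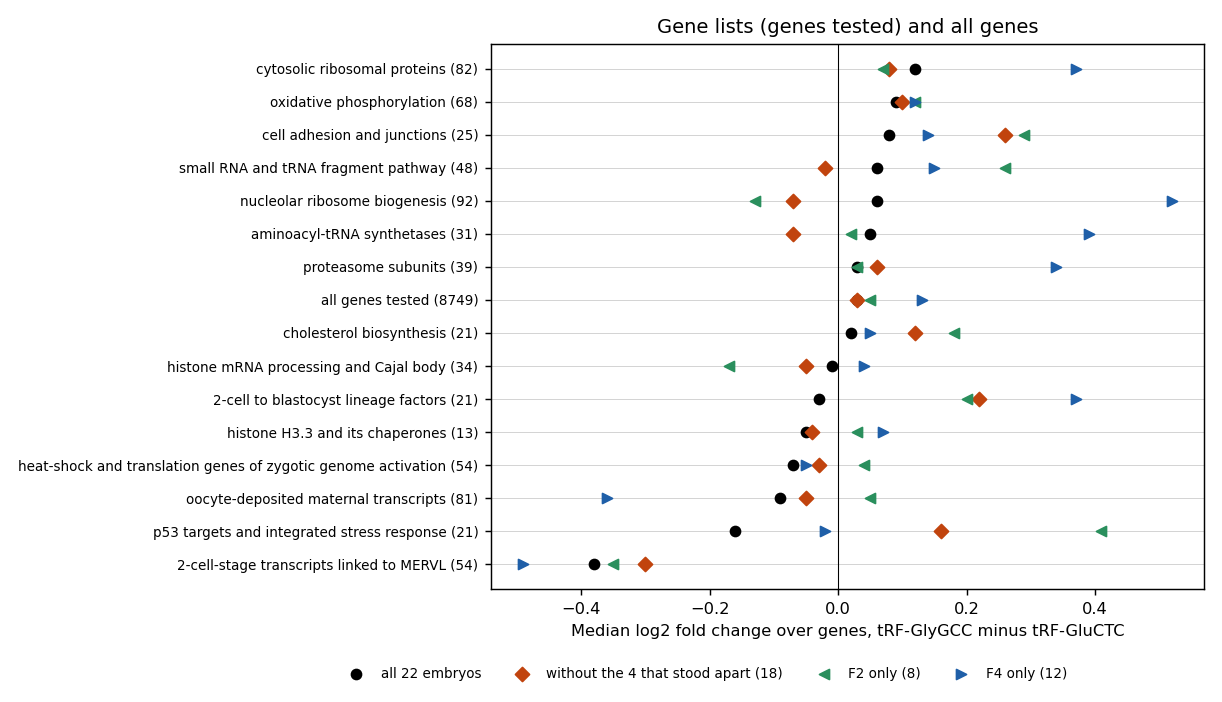
Median log2 fold change of tRF-GlyGCC minus tRF-GluCTC over the genes of each list with at least 13 genes tested and over all genes, in all 22 embryos, without the 4 libraries that stood apart, and within F numbers 2 and 4. The MERVL-linked 2-cell genes lie between -0.49 and -0.30 in all 4 fits, while the nucleolar list runs from -0.13 to 0.52.

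Whether the difference between the fragments itself changed with the F number was tested by an interaction in the 20 embryos of numbers 2 and 4. edgeR called 0 of 8730 genes (0%) at an adjusted p under 0.05, and 260 (2.98%) had an unadjusted p under 0.05. Without tRF-GluCTC replicate 6 there were 11 calls, which left replicates 4 and 5, both of the libraries that stood apart, as the only tRF-GluCTC embryos of F number 4. Csrnp3, a nuclear protein gene and the first of these by p, had 71.1, 52.4, 158, 0, 0 and 131 CPM in the tRF-GluCTC embryos, and Ercc6, a transcription-coupled repair factor, had 42, 50.3, 52.7, 0, 0.785 and 18.8 CPM. Without tRF-GluCTC replicate 3 there was 1 call, Klhl28, with 0, 0.524, 63.3, 186, 84 and 43.1 CPM in these embryos. The 3 genes were named after their values were seen, and with all 20 embryos their adjusted p was 1.

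Markers of cells that could travel with an embryo were nearly all unlisted in the table. It lists 2 of 31 genes of cumulus and granulosa cells, 2 of 24 sperm-borne transcripts and 1 of 13 blood genes. The 2 cumulus genes summed to 104 to 270 CPM with tRF-GlyGCC (median 186) and to 174 to 348 CPM with tRF-GluCTC (median 218). Hba-a2, an alpha-globin gene, ran from 9.19 to 210 CPM and from 0 to 364 CPM, with 288 and 364 CPM in tRF-GluCTC replicates 4 and 5. All 5 of these markers had lower estimates with tRF-GlyGCC, with medians of -0.31 (cumulus), -0.75 (sperm) and -0.88 (Hba-a2 alone), and none had an unadjusted p under 0.05; without the 4 libraries these medians were -0.34, -0.21 and 1.37. The part of such markers in the values above was not tested. As for the labelled stage, the MERVL-linked genes, which define it, were present in every embryo, at 10190 CPM or more.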

How the data were processed

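Expected counts per gene and embryo were deposited by the authors, with 0 shown as 0.1. The submitters' processing notes name Bowtie and mm10, and no source used here names the counter or the annotation. The table lists 8805 genes, of which 8792 were matched to RefSeq names, and 81.9% of its values are whole. Values of 0.1 were set to 0 and expected counts rounded. CPM were scaled by TMM factors over the table's 43 embryos.

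edgeR 4.0.16 (R 4.3.3; quasi-likelihood, TMM, low-count filter, Benjamini-Hochberg over 8749 genes) gave the main test. DESeq2 1.42.0 and limma 3.58.1 were alternatives. The test was tried on simulated counts. The members and gene lists were chosen with earlier results of these data known. Named genes were the 10 of smallest p in each direction with a mean of at least 20 CPM, genes whose groups do not overlap, and in each list the 3 most abundant and the member of smallest p in each direction, of which a part is printed, besides H3f3a and H3f3b. Depth was 0.971 to 2.478 M counts. The sequences of the injected oligonucleotides were not used here.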

Additional observations from a re-analysis of the deposited data

Results flagged for a closer look

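Of 51 values examined in the 6 tRF-GluCTC embryos, 5 had 1 embryo far from the others, by the gap to its nearest neighbour over the whole range. The rule flags about 1 in 20 groups of independent, normally distributed values. CPM of single embryos, partly of genes chosen by p in the same embryos, are not such values, so that rate does not apply here. Enoph1 was at 92.3 CPM in replicate 4, next to 49.5 CPM. Tdpoz2 was at 415 CPM in replicate 6, next to 139 CPM, and Tcstv1 at 607 CPM in the same embryo, next to 236 CPM. Hspa2 was at 613 CPM in replicate 5, next to 164 CPM. The 2 sperm-borne transcripts of the table, Ldhc and Tssk6, summed to 129 CPM in replicate 5, next to 55 CPM. Replicates 4 and 5 are among the libraries that stood apart.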

How the results depend on the processing

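The comparison of the fragments gave 0 adjusted calls in all fits run, including leave-one-out (0 to 0), other scaling, no filter, the replicate block, added embryos and limma-voom. Genes at an unadjusted p under 0.05 numbered 132 in the main test, 218 with DESeq2, 279 with limma-voom, 283 in F number 4 alone, 291 with the first principal component as a term (chosen after seeing the data, as was leaving out the libraries that stood apart), and 98 to 233 when 1 embryo was left out (233 without tRF-GluCTC replicate 3, 206 without replicate 6); the cause was not tested. The interaction with F number ranged from 0 to 11 calls when 1 embryo was left out. The F and title numbers did not pair the embryos (correlations of 5 pairs from -0.128 to 0.312, none highest with its own number). F number as a replicate block gave 0 calls and 171 genes at an unadjusted p under 0.05, with 45 of the 54 MERVL-linked genes lower (beside 43.2% of all genes), their median at -0.47 and 10 lower at that p (beside 0.652%), and F with title number gave 0 and 138, against 90 in the same 10 embryos without the block. The median of the 54 MERVL-linked genes was below 0 in every fit of the main comparison, from -0.56 in those 10 embryos to -0.25 with limma-voom.

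Some fold changes turned sign: Kcnq1ot1 to 0.24 in F number 4, Nans to 0.11 and Hspa2 to 0.95 in F number 2, Gm8994 to 0.11 with limma-voom (-0.52 to 0.00 when 1 embryo was left out), and Gm2042 to -0.33 in F number 4 and -0.01 with F number as a block (-0.02 to 0.39 when 1 embryo was left out). Without tRF-GluCTC replicates 4 and 5 Arid4a was at 0.01, Nans at 0.08 and Hspa2 at 0.77, and without all 4 libraries at 0.02, 0.10 and 0.57. In the simulated counts 2 of 100 genes changed 2-fold and 31 of 100 changed 4-fold were recovered. Most changes of either size were thus missed there, in counts that lacked the variation shared by genes of an embryo.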
